A study of Mus musculus with 18 samples.

Results

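Genes of the cell cycle and of DNA replication were followed in the mouse cochlea, 42 genes chosen by name from the 46583 of the deposited table. They fall into 26 mitosis genes (proliferation markers, cyclins, kinases, checkpoint, spindle and cytokinesis genes) and 16 replication genes (origin licensing, helicase, nucleotide supply, sliding clamp and E2F genes), and the classes were described apart. Each of the 42 stood on 1 row of the table and all 42 passed the filter on low counts, which left 17901 genes. The cochleae came from 4-week-old mice: conditional Fst knock-outs (Fst cKO) and Control animals, whose genotype the labels give as WT and whose treatment they give as untreated. Follistatin, the product of Fst, is a secreted antagonist of activins. The 3 regions base, middle and apex were taken from each genotype, so that the groups are Fst cKO base, Fst cKO middle, Fst cKO apex, Control base, Control middle and Control apex. Per the labels, each group was pooled into 1 RNA sample, and 3 technical libraries were made from each pool, 18 libraries in all. The labels name neither the Cre driver nor the Fst allele, the sex or the number of animals in a pool.

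A dividing cell first licenses its replication origins: Cdc6 and Cdt1 load the Mcm2 to Mcm7 helicase, Cdc45 and the GINS complex switch it on, ribonucleotide reductase and thymidylate synthase supply nucleotides, and the PCNA clamp holds the polymerases on DNA. E2F factors drive the transcription of this set around S phase. The mitosis genes follow later, in G2 and M phase: Cdk1 with cyclin B starts mitosis, Aurora and Polo-like kinases, kinesins and checkpoint proteins build and watch the spindle, Cdc20 and Ube2c serve the anaphase-promoting complex, and Anln, Ect2 and Prc1 act in cytokinesis. Cochlear hair cells and supporting cells of the mature mouse have left the cell cycle. Several replication proteins, the clamp and the Mcm helicase among them, are also found outside S phase. Transcripts of many mitosis genes are used as marks of dividing cells, which need not hold for each member of the class.

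Libraries held 24446760 to 33732726 counts (median 28749804), where 3 counts equal 0.0889 to 0.123 CPM, the unit of counts scaled to the library total and a TMM factor. Errors after CPM values are SDs over the 3 libraries of a pool. Errors after log2 fold changes are approximate standard errors, derived as the absolute log2 fold change divided by the square root of edgeR's quasi-likelihood F statistic. Both measure the spread between technical libraries of 1 pool, so that no p-value here speaks for differences between animals (n = 1 pool per group). Calls required both a Benjamini-Hochberg adjusted p below 0.05 and a log2 fold change of 1 or more in either direction. Fst itself had 1.89 ± 0.12, 2.97 ± 0.35 and 9.74 ± 0.38 CPM in the Fst cKO base, middle and apex, against 2.22 ± 0.21, 6.4 ± 0.58 and 23.8 ± 0.86 CPM in the Control base, middle and apex. Xist had a mean of 59.8 to 87.1 CPM over the Fst cKO pools and 298.1 to 361.4 CPM over the Control pools, while the Y-linked Ddx3y had 78.1 to 84.6 CPM over the Fst cKO pools and 43.1 to 55.4 CPM over the Control pools. Both depend on the mix of sexes in a pool, and the part of that mix in the results cannot be told apart from that of the genotype.

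The stretches of 150 bases before the annotated start of 5 members are shown first, because cell cycle promoters are known for short motifs that go with the phase of expression. They come from RefSeq on build GRCm38.p6 and run 5′ to 3′ on the gene's strand. Capitals mark 3 motifs on either strand: TTTGAA, the core of the cell cycle genes homology region (CHR), CCAAT, and the E2F motif taken as TTCCCGC or else TTGGCGC or else TTCGCGC or else TTGCCGC, where overlapping matches run together. Among members whose stretch lies wholly before the transcribed bases, Mki67 and Bub1b had the highest and lowest log2 fold change of the mitosis genes in the apex, Fst cKO over Control, and E2f8 and Mcm6 those of the replication genes. Top2a is the other proliferation marker.
Mki67: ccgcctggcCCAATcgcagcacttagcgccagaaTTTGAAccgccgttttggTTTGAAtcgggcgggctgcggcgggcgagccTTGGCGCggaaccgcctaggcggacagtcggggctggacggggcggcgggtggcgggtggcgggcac
Bub1b: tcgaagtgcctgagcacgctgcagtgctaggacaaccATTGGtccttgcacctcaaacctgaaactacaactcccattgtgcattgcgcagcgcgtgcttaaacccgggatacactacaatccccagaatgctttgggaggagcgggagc
E2f8: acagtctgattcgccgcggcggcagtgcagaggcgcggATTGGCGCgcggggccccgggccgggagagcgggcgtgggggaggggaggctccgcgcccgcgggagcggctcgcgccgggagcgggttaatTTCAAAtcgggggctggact
Mcm6: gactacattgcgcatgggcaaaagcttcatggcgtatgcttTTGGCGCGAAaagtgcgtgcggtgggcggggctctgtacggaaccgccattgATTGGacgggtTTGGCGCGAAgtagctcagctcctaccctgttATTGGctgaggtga
Top2a: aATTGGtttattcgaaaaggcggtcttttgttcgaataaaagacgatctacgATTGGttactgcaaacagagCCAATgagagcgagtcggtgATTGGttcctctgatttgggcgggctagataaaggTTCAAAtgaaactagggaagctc
The stretch of Mki67 lies at chr7:135716380-135716529 (minus strand), that of Bub1b at chr2:118598061-118598210 (plus strand), that of E2f8 at chr7:48881597-48881746 (minus strand), that of Mcm6 at chr1:128359706-128359855 (minus strand) and that of Top2a at chr11:99024190-99024339 (minus strand). The CHR core stood in the stretches of Mki67, E2f8 and Top2a. In Mcm6 the E2F motif stood 4 times, as a pair of sites each read on both strands.

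RefSeq windows from 250 bases before to 50 bases after the start were at hand for 35 of the 42 members, 22 mitosis genes with 24 windows and 13 replication genes with 14. The CHR core stood in 19 of 24 mitosis windows (79.2%) and in 3 of 14 replication windows (21.4%), against 17.9% of all 32851 windows of this length. The E2F motif stood in 25.0% of the mitosis windows and in 64.3% of the replication windows, against 9.57% of all windows. CCAAT stood in 87.5% of the mitosis windows, 71.4% of the replication windows and 37.4% of all windows. A match is a description of these letters only and shows neither binding nor activity.

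Mitosis genes were most abundant in the Control middle and the Fst cKO base and least abundant in the Control apex. Their summed level was 172.0, 168.3 and 168.9 CPM in the Fst cKO base libraries, against 98.1, 94.4 and 98.4 CPM in the Control base libraries. In the middle the sum was 144.0, 143.1 and 145.2 CPM in Fst cKO libraries, against 174.8, 173.9 and 176.9 CPM in Control libraries. The apex gave 105.9, 104.9 and 107.7 CPM in Fst cKO libraries, against 73.5, 74.7 and 74.5 CPM in Control libraries. The libraries of the genotypes did not overlap in any region: Fst cKO was above Control in the base, by 1.75 times, and in the apex, by 1.43 times, and below it in the middle, at 0.82 times the Control level. Mki67 gave a large part of the sum. Without Mki67 the ratios were 1.56 in the base, 1.34 in the apex and 0.81 in the middle. In bulk tissue, fewer cells of a type and less RNA per cell cannot be told apart. Summed red blood cell and neutrophil markers were also high in the Fst cKO base and Control middle and are given with the genotype comparisons further on. The red blood cell sum was nearly as high in the Fst cKO middle, at 1036 CPM against 1062 CPM in the Control middle. The neutrophil sum was 263.5 CPM in the Fst cKO middle against 304.9 CPM in the Control middle.

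Replication genes differed between genotypes in the same directions, over a narrower range. Their sum was 200.3, 208.7 and 203.4 CPM in the Fst cKO base, against 178.5, 174.9 and 174.1 CPM in the Control base. It was 181.4, 183.0 and 181.7 CPM in the Fst cKO middle, against 215.2, 207.2 and 214.5 CPM in the Control middle. In the Fst cKO apex it was 170.4, 177.5 and 167.0 CPM, against 151.1, 155.9 and 153.8 CPM in the Control apex. The genotypes stood apart in every region here too, but the ratio of the means, Fst cKO over Control, was only 1.16 in the base, 0.86 in the middle and 1.12 in the apex.

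Member by member, the highest group mean was in the Control middle for 18 of 26 mitosis genes, in the Fst cKO base for 7 and in the Control apex for 1, Cdc20. The lowest was in the Control apex for 23 of 26. Of all tested genes, 10.3% were highest in the Control middle, 20.1% in the Fst cKO base, and 24.2% lowest in the Control apex. Of the 16 replication genes, 8 peaked in the Control middle, 7 in the Fst cKO base and 1, E2f1, in the Fst cKO middle, and 13 were lowest in the Control apex. The highest group mean exceeded the lowest by 1.49 to 4.75 times among the mitosis genes (median 2.67) and by 1.1 to 3.82 times among the replication genes (median 1.57). A range of at least 2 was reached by 19 of 26 mitosis genes and by 4 of 16 replication genes, against 17% of all tested genes.

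**Figure D1:**
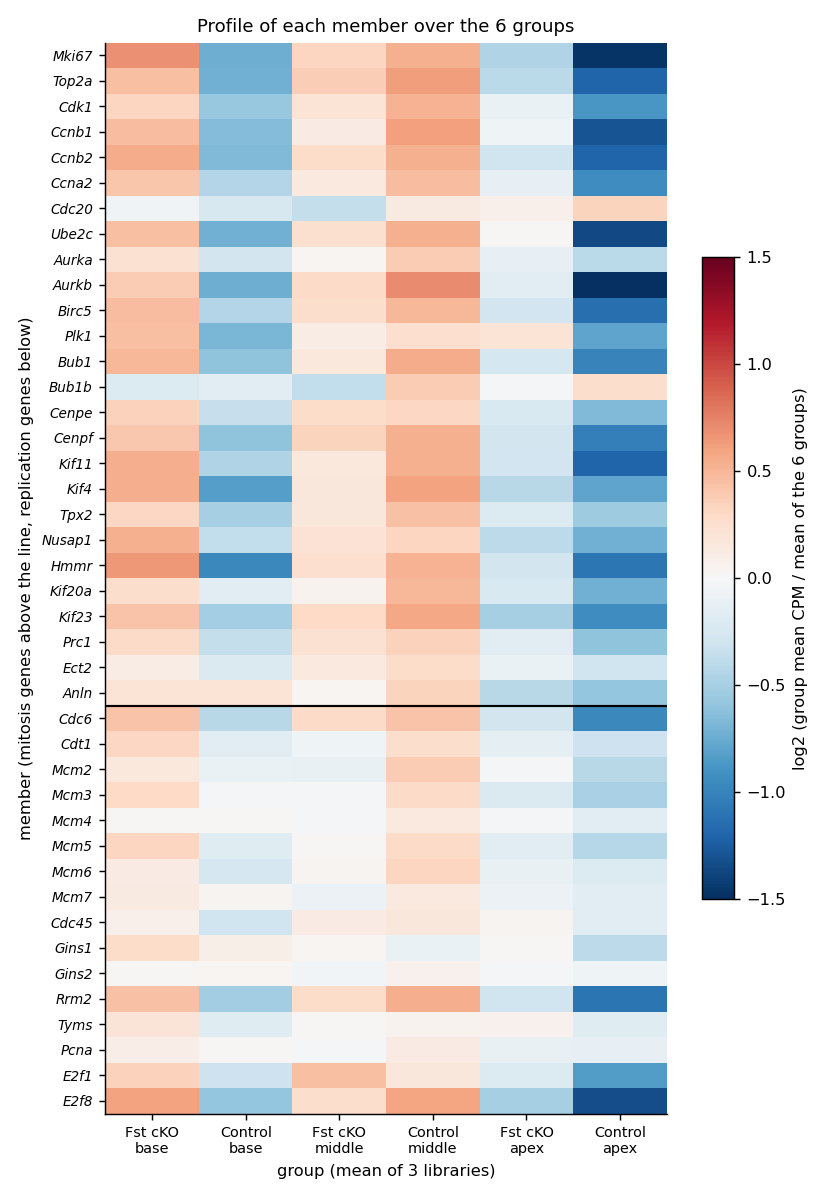
Each row is 1 of the 42 members and each column 1 of the 6 groups (mean of 3 technical libraries), coloured by the log2 ratio of the group mean CPM to the member's mean over the 6 groups. The mitosis rows above the line are mostly red in the Fst cKO base and Control middle and blue in the Control base and Control apex, with Bub1b, Cdc20 and Anln apart, and the replication rows below it are paler except Cdc6, Rrm2, E2f1 and E2f8.

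Both proliferation markers were high in the Fst cKO base and Control middle and lowest in the Control apex. Mki67, which encodes the Ki-67 protein of dividing nuclei, had 44.9, 44.4 and 45.5 CPM in Fst cKO libraries, against 17.0, 16.5 and 16.9 CPM in Control libraries in the base. In the middle it had 34.9, 34.1 and 35.4 CPM in Fst cKO libraries, against 39.5, 39.3 and 42.6 CPM in Control libraries. The apex held 20.1, 21.3 and 19.9 CPM in Fst cKO libraries, against 9.19, 10.7 and 10.3 CPM in Control libraries. The libraries of the genotypes did not overlap in any region, with Fst cKO above Control in the base and apex and below it in the middle. The log2 fold change of Mki67, Fst cKO over Control, was 1.42 ± 0.042, adjusted p = 4.92e-25, in the base, -0.22 ± 0.035, adjusted p = 4.2e-06, in the middle and 1.03 ± 0.055, adjusted p = 2.29e-17, in the apex. The apex call stands at the threshold: the value was 0.97 without Control apex replicate 1 and 0.99 without Fst cKO apex replicate 2.

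Top2a encodes topoisomerase II alpha, which untangles sister DNA before it separates. Its level in the base was 13.6, 11.8 and 11.8 CPM in Fst cKO libraries, against 5.39, 5.56 and 5.68 CPM in Control libraries. For the middle the values were 11.7, 11.7 and 12.0 CPM in Fst cKO libraries, against 14.3, 13.7 and 14.1 CPM in Control libraries. The apex gave 7.51, 6.01 and 7.14 CPM in Fst cKO libraries, against 4.19, 3.87 and 3.83 CPM in Control libraries. The genotypes stood apart in each region, in the same directions. Top2a rose by 1.16 ± 0.080, adjusted p = 1.62e-14, in the base, and was -0.25 ± 0.063 in the middle and 0.80 ± 0.10 in the apex, both inside the fold threshold.

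Ccna2 encodes cyclin A2, the cyclin of S and G2 phase. In the base Ccna2 had 7.97, 8.26 and 8.02 CPM in Fst cKO libraries, against 4.31, 3.81 and 5.29 CPM in Control libraries. The middle held 6.57, 7.15 and 6.46 CPM in Fst cKO libraries, against 7.59, 8.80 and 8.76 CPM in Control libraries. The values in the apex were 5.53, 5.57 and 5.60 CPM in Fst cKO libraries, against 2.72, 3.01 and 3.80 CPM in Control libraries. The Fst cKO libraries were higher in the base and apex and lower in the middle, with no overlap in any region. The log2 fold change of Ccna2 was 0.87 ± 0.11 in the base and 0.81 ± 0.12 in the apex, both under the fold threshold. Exosc9 on the opposite strand overlaps 12.5% of the exonic bases of Ccna2 and had 9792.1 counts over all libraries, against 3137.9 for Ccna2. Ccnb1, the cyclin that starts mitosis with Cdk1, rose in the base (1.11 ± 0.16) and in the apex (1.22 ± 0.19). The apex call of Ccnb1 was lost in limma fits on log2(FPKM + 1) and log2(FPKM + 0.1), at 0.36 and 0.73. Ccnb2 rose in the base (1.21 ± 0.17) and was at 0.89 ± 0.21 in the apex, where it was called without Control apex replicate 3, at 1.05. Cdk1 was at 0.90 ± 0.16 and 0.77 ± 0.17. Ccnb2 has a transcribed pseudogene, Ccnb2-ps, with 2036 counts over all libraries, so reads could have been split between them.

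Ube2c encodes a ubiquitin-conjugating enzyme of the anaphase-promoting complex. In the base Ube2c had 4.72, 4.14 and 3.87 CPM in Fst cKO libraries, against 2.14, 2.12 and 1.42 CPM in Control libraries. Its level in the middle was 3.73, 3.75 and 3.54 CPM in Fst cKO libraries, against 4.45, 4.84 and 4.26 CPM in Control libraries. In the apex it had 3.09, 3.59 and 2.75 CPM in Fst cKO libraries, against 1.02, 1.66 and 0.983 CPM in Control libraries. The Fst cKO base and apex libraries were all above their Control libraries, and the middle libraries were all below. Ube2c rose in the base (1.14 ± 0.16, adjusted p = 2.12e-07) and in the apex (1.36 ± 0.18, adjusted p = 1e-07), and the base call was lost without Control base replicate 3, at 0.99. Tnnc2, on the opposite strand, overlaps 22.8% of the exonic bases of Ube2c, and whether the counting used strand is not stated, but Tnnc2 had 62.9 counts over all libraries against 1617.1 for Ube2c.

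Cdc20, an activator of the same complex, was instead highest in the Control apex. In the base Cdc20 had 6.25, 6.29 and 5.08 CPM in Fst cKO libraries, against 4.64, 5.56 and 5.26 CPM in Control libraries. The middle had 4.77, 4.72 and 4.69 CPM in Fst cKO libraries, against 6.71, 6.78 and 6.61 CPM in Control libraries. The apex had 6.81, 6.49 and 5.89 CPM in Fst cKO libraries, against 7.76, 7.53 and 7.62 CPM in Control libraries. The Fst cKO libraries were below all Control libraries in the middle and apex, while the base libraries overlapped. Cdc20 was not called in any genotype comparison, with 0.19 ± 0.10, adjusted p = 0.132, in the base, -0.50 ± 0.091, adjusted p = 2.87e-05, in the middle and -0.26 ± 0.086, adjusted p = 0.0169, in the apex. Elovl1 on the opposite strand overlaps 2.84% of the exonic bases of Cdc20 and had 49488.0 counts over all libraries, against 3143.0 for Cdc20.

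Birc5 encodes survivin, a member of the chromosomal passenger complex. In the base Birc5 had 4.17, 3.99 and 3.67 CPM in Fst cKO libraries, against 1.78, 2.15 and 2.38 CPM in Control libraries. In the middle the values were 3.17, 3.66 and 3.45 CPM in Fst cKO libraries, against 4.00, 3.91 and 4.19 CPM in Control libraries. Those of the apex were 2.10, 2.31 and 2.60 CPM in Fst cKO libraries, against 1.46, 1.46 and 0.983 CPM in Control libraries. The genotypes did not overlap in any region. Birc5 was at 0.92 ± 0.14 in the base and 0.84 ± 0.17 in the apex, just inside the fold threshold, and passed it in the base without Control base replicate 3, at 1.0. Aurkb, the kinase of the same complex, rose in the base (1.11 ± 0.20) and apex (1.36 ± 0.24). Plk1, a kinase of mitotic entry and spindle assembly, rose in the base (1.13 ± 0.15) and apex (1.0 ± 0.15), and the apex call was lost without Control apex replicate 2 (0.88), Control apex replicate 3 (1.0, just under the threshold) or Fst cKO apex replicate 1 (0.89). Aurka, the spindle pole kinase, was at 0.51 ± 0.15 in the base and 0.28 ± 0.16 in the apex.

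Bub1b encodes the spindle checkpoint protein BubR1. In the base Bub1b had 4.64, 4.45 and 4.73 CPM in Fst cKO libraries, against 5.36, 4.20 and 4.59 CPM in Control libraries. The middle held 4.42, 3.63 and 4.31 CPM in Fst cKO libraries, against 6.60, 6.81 and 7.31 CPM in Control libraries. In the apex the values were 4.38, 5.35 and 5.86 CPM in Fst cKO libraries, against 6.37, 6.27 and 6.44 CPM in Control libraries. The Fst cKO libraries were below the Control libraries in the middle and apex and overlapped them in the base. Bub1b was at -0.75 ± 0.10, adjusted p = 2.34e-07, in the middle and -0.29 ± 0.10, adjusted p = 0.0222, in the apex. Bub1, a kinase of the same checkpoint, rose in the base (1.1 ± 0.25) and was at 0.73 ± 0.28 in the apex. In limma fits on log2(FPKM + 1) and log2(FPKM + 0.1) the adjusted p of Bub1 in the base was 0.110 and 0.067.

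Cenpe, a kinesin of the kinetochore, showed the smallest difference of its class in the middle. In the base Cenpe had 3.46, 3.52 and 3.40 CPM in Fst cKO libraries, against 2.30, 2.45 and 1.67 CPM in Control libraries. The values of the middle were 3.38, 2.89 and 3.63 CPM in Fst cKO libraries, against 3.30, 3.11 and 3.70 CPM in Control libraries. The apex had 2.80, 2.38 and 1.79 CPM in Fst cKO libraries, against 1.87, 1.66 and 1.63 CPM in Control libraries. The libraries of the middle and apex overlapped, whereas those of the base did not. Cenpe was at 0.67 ± 0.16, -0.032 ± 0.14 and 0.43 ± 0.17 in the base, middle and apex. Cenpf, a kinetochore protein of G2 and M phase, rose in the base (1.01 ± 0.15), a call lost without Control base replicate 1 (0.99), Control base replicate 2 (0.99) or Fst cKO base replicate 1 (0.95). Its adjusted p in the base was 0.424 and 0.326 in limma fits on log2(FPKM + 1) and log2(FPKM + 0.1).

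Nusap1 encodes a microtubule-binding protein of the spindle. Its level in the base was 6.81, 6.13 and 7.35 CPM in Fst cKO libraries, against 4.04, 2.71 and 4.12 CPM in Control libraries. The middle gave 5.10, 5.40 and 5.78 CPM in Fst cKO libraries, against 5.67, 5.47 and 6.36 CPM in Control libraries. The apex gave 2.87, 4.13 and 3.66 CPM in Fst cKO libraries, against 2.86, 2.85 and 2.76 CPM in Control libraries. The base libraries stood apart, the middle libraries overlapped, and in the apex the lowest Fst cKO library lay only just above the highest Control library. Nusap1 was at 0.91 ± 0.13, -0.10 ± 0.11 and 0.33 ± 0.15 in the base, middle and apex, and was called in the base without Control base replicate 1, at 1.01.

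Hmmr, a spindle and hyaluronan-binding protein, had the largest change of all members in the base. It had 3.14, 2.34 and 2.27 CPM in Fst cKO libraries, against 1.05, 0.860 and 0.626 CPM in Control libraries there. In the middle it had 2.34, 1.65 and 1.89 CPM in Fst cKO libraries, against 1.91, 2.77 and 2.42 CPM in Control libraries, and the libraries overlapped. In the apex it had 1.29, 1.39 and 1.43 CPM in Fst cKO libraries, against 0.783, 0.780 and 0.779 CPM in Control libraries, with no overlap. Hmmr rose by 1.58 ± 0.21, adjusted p = 1.19e-07, in the base and was at 0.81 ± 0.24 in the apex. Kif4, a chromokinesin, rose in the base (1.38 ± 0.20) and was at 0.38 ± 0.22 in the apex, and 15.1% of its exonic bases overlap Pdzd11 on the opposite strand. Pdzd11 had 16077.1 counts over all libraries against 808.9 for Kif4, so the level of Kif4 is uncertain. Kif11, the motor that separates the spindle poles, rose in the base (1.01 ± 0.12), a call lost without Control base replicate 1 (0.99), Control base replicate 2 (0.93) or Fst cKO base replicate 3 (0.91). Tpx2, a spindle assembly factor, was at 0.80 ± 0.12 in the base.

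Anln, one of 5 cytokinesis genes, encodes anillin, an actin-binding scaffold of the cleavage furrow. In the base Anln had 20.8, 21.5 and 20.5 CPM in Fst cKO libraries, against 21.4, 20.7 and 20.8 CPM in Control libraries. The middle had 18.2, 18.6 and 18.8 CPM in Fst cKO libraries, against 23.6, 24.1 and 21.2 CPM in Control libraries. The apex had 14.4, 12.7 and 13.9 CPM in Fst cKO libraries, against 13, 11.8 and 11.8 CPM in Control libraries. The base and apex libraries overlapped, and those of the middle stood apart. Anln was at -0.0057 ± 0.050, adjusted p = 0.947, in the base, -0.31 ± 0.047, adjusted p = 1.86e-06, in the middle and 0.16 ± 0.060, adjusted p = 0.0302, in the apex. The other 4, Kif20a, Kif23, Prc1 and Ect2, were at 0.45 ± 0.16, 0.94 ± 0.16, 0.64 ± 0.10 and 0.31 ± 0.15 in the base. None of the 5 was called between genotypes, but Kif23 was called in the base without Control base replicate 1, at 1.05. Cdc23 overlaps 29.3% of the exonic bases of Kif20a on the opposite strand, and Rccd1 overlaps 11.1% of those of Prc1. Over all libraries Cdc23 had 32378.6 counts against 1318.4 for Kif20a, and Rccd1 had 5928.0 against 2690.0 for Prc1.

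**Figure D2:**
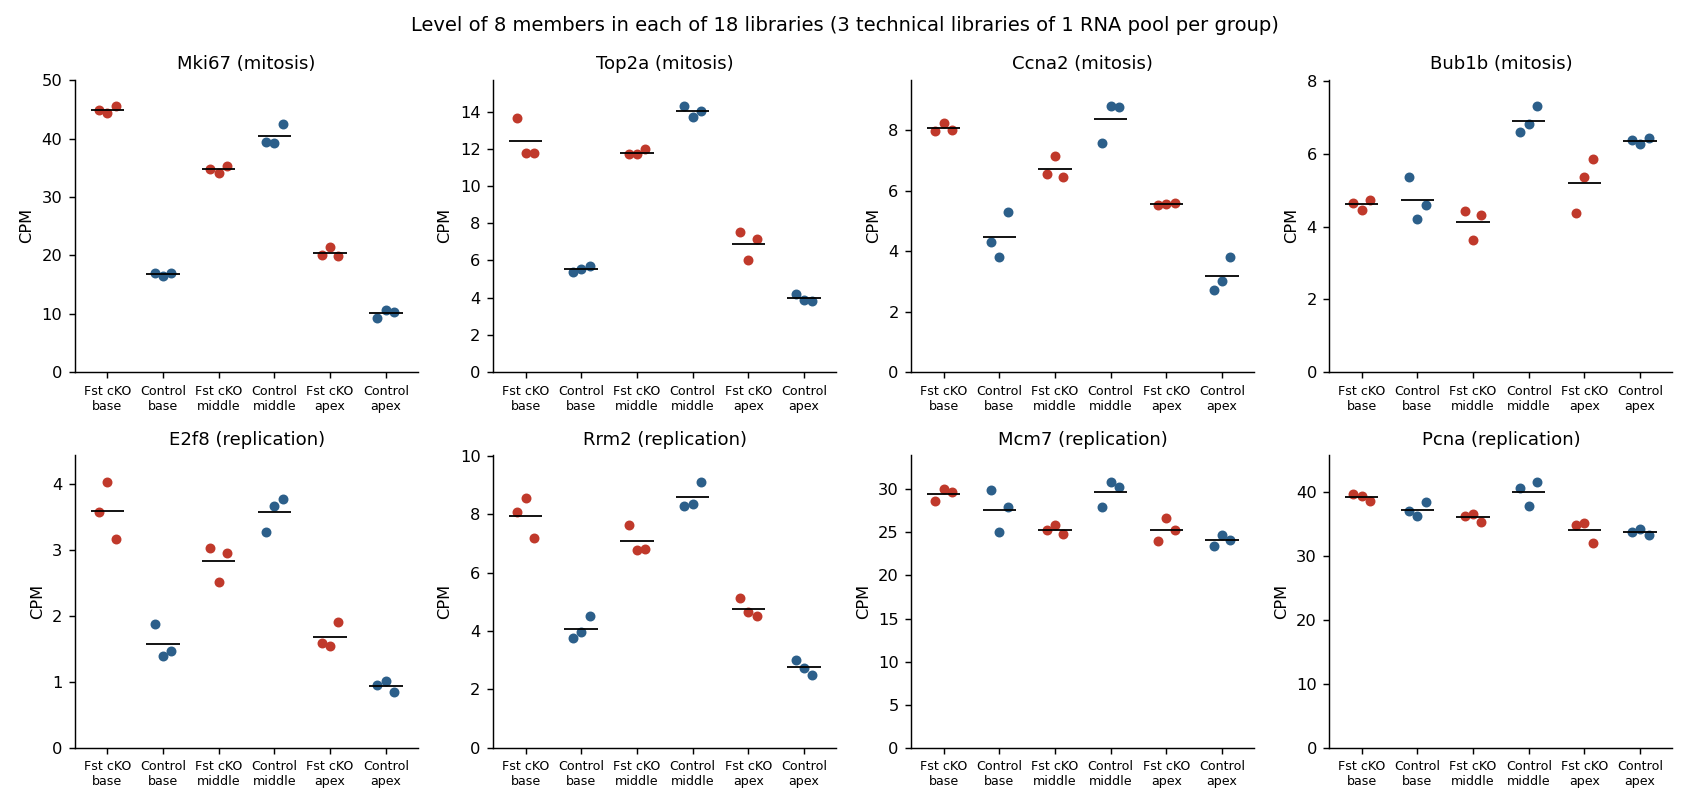
CPM (vertical axes, from 0) of 4 mitosis and 4 replication genes in each of the 18 libraries, by group, Fst cKO in red and Control in blue, with a line at the mean of the 3 technical libraries. Mki67, Top2a, Ccna2, E2f8 and Rrm2 share a saw-tooth order with peaks in the Fst cKO base and Control middle, Bub1b peaks in the Control middle and Control apex, and Mcm7 and Pcna vary little.

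Cdt1 is the licensing factor that brings the helicase to origins. In the base Cdt1 had 4.83, 4.96 and 4.10 CPM in Fst cKO libraries, against 3.39, 3.18 and 3.38 CPM in Control libraries. Its level in the middle was 3.47, 3.78 and 3.51 CPM in Fst cKO libraries, against 4.21, 4.91 and 4.33 CPM in Control libraries. In the apex it had 3.24, 3.41 and 3.55 CPM in Fst cKO libraries, against 3.47, 2.71 and 2.85 CPM in Control libraries. The genotypes stood apart in the base and middle and overlapped in the apex. Cdt1 was at 0.48 ± 0.12, adjusted p = 0.00109, -0.32 ± 0.11, adjusted p = 0.0191, and 0.18 ± 0.12, adjusted p = 0.281, in the base, middle and apex. Cdc6, which loads the helicase with Cdt1, was at 0.85 ± 0.15 in the base and 0.69 ± 0.18 in the apex.

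The 6 helicase genes stayed inside the fold threshold in each genotype comparison. Mcm7, one of them, had 28.6, 30.0 and 29.6 CPM in Fst cKO libraries, against 30.0, 25.0 and 28.0 CPM in Control libraries in the base. The middle held 25.2, 25.8 and 24.8 CPM in Fst cKO libraries, against 27.9, 30.9 and 30.2 CPM in Control libraries. In the apex the values were 24.0, 26.7 and 25.2 CPM in Fst cKO libraries, against 23.4, 24.7 and 24.1 CPM in Control libraries. Only the middle libraries stood apart. Mcm7 was at 0.091 ± 0.050, -0.23 ± 0.047, adjusted p = 0.000185, and 0.071 ± 0.052 in the base, middle and apex. On the opposite strand, Ap4m1 overlaps 7.25% and Cops6 1.45% of the exonic bases of Mcm7. Over all libraries Ap4m1 had 15716.9 and Cops6 37360.0 counts, against 13927.7 for Mcm7.

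Mcm2 had the largest difference of the replication genes in the middle. In the base Mcm2 had 19.6, 19.7 and 21.0 CPM in Fst cKO libraries, against 18.1, 16.5 and 16.2 CPM in Control libraries. The middle gave 15.9, 16.3 and 17.8 CPM in Fst cKO libraries, against 23.6, 24.6 and 22.2 CPM in Control libraries. The apex gave 18.2, 17.8 and 17.1 CPM in Fst cKO libraries, against 14.1, 13.2 and 13.3 CPM in Control libraries. Each region separated the genotypes, with Fst cKO lower in the middle and higher elsewhere. The log2 fold change of Mcm2 was 0.25 ± 0.054, adjusted p = 0.000399, in the base, -0.49 ± 0.050, adjusted p = 3.59e-10, in the middle and 0.39 ± 0.057, adjusted p = 9.19e-07, in the apex. The other 4 ranged from 0.0017 (Mcm4) to 0.50 (Mcm5) in the base and from -0.30 (Mcm3) to -0.18 (Mcm4) in the middle.

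The genes that switch the helicase on did not pass the fold threshold in any comparison. Gins2, a GINS subunit, had 18.9, 22.5 and 23.6 CPM in Fst cKO libraries, against 21.3, 25.2 and 19.5 CPM in Control libraries in the base. The middle had 21.7, 20.3 and 20.7 CPM in Fst cKO libraries, against 26.2, 19.1 and 22.2 CPM in Control libraries. The apex had 18.9, 24.4 and 20.3 CPM in Fst cKO libraries, against 16.9, 22.8 and 22.0 CPM in Control libraries. The genotypes overlapped in all 3 regions. Gins2 was at -0.031 ± 0.10, -0.11 ± 0.094 and 0.047 ± 0.10 in the base, middle and apex, but its level is uncertain, since Gse1 on the opposite strand overlaps 67.3% of its exonic bases. Cdc45 was at 0.36 ± 0.13 and Gins1 at 0.20 ± 0.21 in the base. Ufd1 on the opposite strand overlaps 5.96% of the exonic bases of Cdc45 and had 31085.6 counts over all libraries, against 1719.4 for Cdc45.

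Rrm2 encodes the cell cycle-regulated subunit of ribonucleotide reductase. Its level in the base was 8.09, 8.56 and 7.19 CPM in Fst cKO libraries, against 3.75, 3.97 and 4.51 CPM in Control libraries. The middle gave 7.62, 6.79 and 6.81 CPM in Fst cKO libraries, against 8.27, 8.37 and 9.11 CPM in Control libraries. The values of the apex were 5.12, 4.66 and 4.5 CPM in Fst cKO libraries, against 3.0, 2.75 and 2.51 CPM in Control libraries. The genotypes stood apart in all 3 regions. Rrm2 was at 0.97 ± 0.10, adjusted p = 3.92e-10, in the base, just inside the fold threshold, -0.28 ± 0.082, adjusted p = 0.00718, in the middle and 0.79 ± 0.12, adjusted p = 9.9e-07, in the apex. It passed the threshold in the base without Control base replicate 3 or without Fst cKO base replicate 3, at 1.04 in both. Tyms, thymidylate synthase, was at 0.38 ± 0.12 and 0.24 ± 0.12 in the base and apex.

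Pcna encodes the sliding clamp. In the base Pcna had 39.7, 39.3 and 38.6 CPM in Fst cKO libraries, against 37.0, 36.2 and 38.4 CPM in Control libraries. The middle held 36.3, 36.6 and 35.2 CPM in Fst cKO libraries, against 40.6, 37.7 and 41.5 CPM in Control libraries. In the apex it had 34.8, 35.2 and 32.0 CPM in Fst cKO libraries, against 33.8, 34.2 and 33.2 CPM in Control libraries. The genotypes stood apart in the middle, only just so in the base, and overlapped in the apex. Pcna was at 0.078 ± 0.038, -0.15 ± 0.035, adjusted p = 0.00089, and 0.011 ± 0.039 in the base, middle and apex. A pseudogene, Pcna-ps2, had 1202 counts over all libraries, so a part of its reads may have been split.

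E2f8 encodes a repressor of the E2F family. In the base E2f8 had 3.58, 4.02 and 3.17 CPM in Fst cKO libraries, against 1.87, 1.39 and 1.46 CPM in Control libraries. The middle gave 3.02, 2.51 and 2.95 CPM in Fst cKO libraries, against 3.27, 3.67 and 3.77 CPM in Control libraries. The apex gave 1.58, 1.54 and 1.90 CPM in Fst cKO libraries, against 0.953, 1.02 and 0.847 CPM in Control libraries. The genotypes did not overlap in any region. E2f8 rose in the base (1.18 ± 0.16, adjusted p = 9.76e-08) and was at -0.34 ± 0.13, adjusted p = 0.0416, in the middle and 0.83 ± 0.20, adjusted p = 0.00089, in the apex.

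E2f1 encodes an activator of the family. In the base it had 2.36, 2.74 and 2.54 CPM in Fst cKO libraries, against 1.71, 1.92 and 1.21 CPM in Control libraries. In the middle it had 2.58, 2.92 and 2.71 CPM in Fst cKO libraries, against 2.5, 2.46 and 1.77 CPM in Control libraries. The apex had 1.66, 1.65 and 1.90 CPM in Fst cKO libraries, against 0.817, 1.39 and 1.15 CPM in Control libraries. The genotypes stood apart in all 3 regions, always with Fst cKO on top. E2f1 was at 0.63 ± 0.18, adjusted p = 0.00521, in the base, 0.29 ± 0.16, adjusted p = 0.161, in the middle and 0.63 ± 0.21, adjusted p = 0.014, in the apex, inside the fold threshold throughout.

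Levels of different genes were compared on the FPKM scale of the deposited table, which divides by transcript length. The mean over the 18 libraries ran from 0.35 FPKM for Bub1 to 4.10 FPKM for Cdc20 among the mitosis genes (median 1.38), and from 0.73 FPKM for Cdc6 to 28.0 FPKM for Pcna among the replication genes (median 3.99). Mki67 stood at 2.82 and Top2a at 2.90 FPKM.

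In the base, Fst cKO against Control, 12 of 26 mitosis genes and 1 of 16 replication genes rose and none fell. The background is 2.51% of all tested genes called higher and 0.514% called lower. They were Hmmr, Mki67, Kif4, Ccnb2, Top2a, Ube2c, Plk1, Aurkb, Ccnb1, Bub1, Cenpf, Kif11 and E2f8, at log2 fold changes of 1.01 to 1.58. By the adjusted p alone, 22 mitosis and 11 replication genes were higher and none lower, against 16.5% and 19.6% of all tested genes. The median log2 fold change was 0.93 for the mitosis genes and 0.37 for the replication genes, against -0.016 over all tested genes.

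In the apex, Fst cKO against Control, 5 mitosis genes rose, Ube2c, Aurkb, Ccnb1, Mki67 and Plk1, and no replication gene was called. Of all tested genes 1.49% were called higher and 0.553% lower. By the adjusted p alone, 19 mitosis genes were higher and 2 lower, Bub1b and Cdc20, and 8 replication genes were higher and none lower, against 21.8% and 18.8% of all tested genes. The median was 0.74 for the mitosis genes and 0.24 for the replication genes, against 0.0047 over all tested genes. All 5 genes called in the apex were also called in the base, where they are 5 of the 13 members called, and 0.458% of all tested genes were called higher in both.

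In the middle, Fst cKO against Control, no member was called by edgeR or DESeq2, while 2.15% of all tested genes were called higher and 0.575% lower. At an unadjusted p under 0.05, 26 of the 42 members were lower and 0 higher, a cut at which the share of all tested genes was not counted. By the adjusted p alone, 13 mitosis and 10 replication genes were lower and none higher, against 17.7% and 17.9% of all tested genes. The median was -0.29 for the mitosis genes and -0.20 for the replication genes, against -0.00058 over all tested genes. The largest differences were those of Bub1b (-0.75), Cdc20 (-0.50), Ccnb1 (-0.50) and Mcm2 (-0.49).

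**Figure D3:**
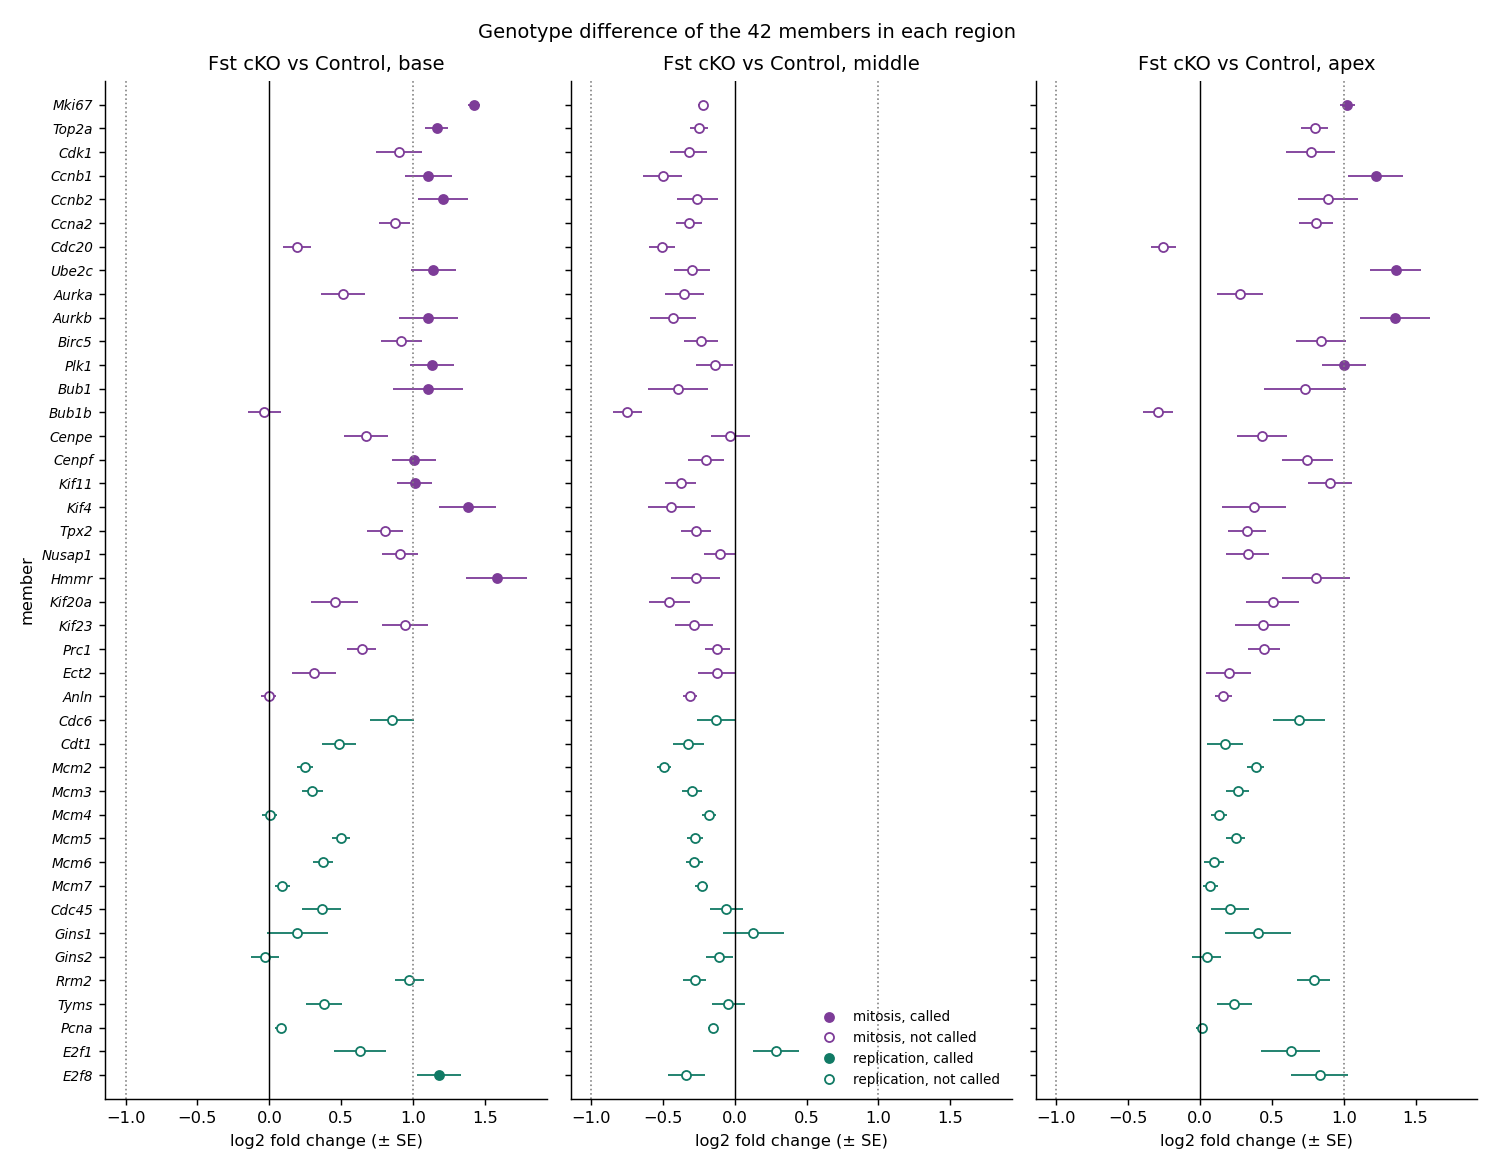
Log2 fold change, Fst cKO over Control, of the 42 members (vertical axis) in base, middle and apex, with bars of 1 standard error derived from the edgeR F statistic (n = 3 technical libraries of 1 pool per group). Filled points are called and dotted lines mark the fold threshold of 1. Points lie mostly right of 0 in the base and apex and left of 0 in the middle.

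The difference between the regions was tested as such, by interaction contrasts. The genotype effect in the apex exceeded that in the middle past the thresholds for 13 mitosis genes and 2 replication genes, E2f8 and Rrm2, and was below it for none, against 1.67% and 1.93% of all tested genes. The effect in the middle was below that in the base for 18 mitosis genes and the same 2 replication genes, and above it for none, against 2.54% and 2.16% of all tested genes. These contrasts share the libraries of the middle. Without the fold threshold, 22 mitosis and 11 replication genes had a higher effect in the apex than in the middle and none a lower one, against 19.9% and 18.1% of all tested genes. For the middle against the base, 25 mitosis and 10 replication genes had a lower effect and none a higher one, against 15.1% and 18.4%. For Mki67 the effect in the apex exceeded that in the middle by 1.24 ± 0.065, adjusted p = 1.43e-17, and that in the middle minus that in the base was -1.64 ± 0.055, adjusted p = 2.56e-23. Between apex and base 1 member differed, Kif4 (-1.0 ± 0.30, adjusted p = 0.0126), against 0.855% of all tested genes called higher and 1.56% lower. There 7 members were lower and none higher by the adjusted p alone, against 8.51% and 16.3% of all tested genes. The call of Kif4 was lost without Control base replicate 2 (-0.88), Control apex replicate 1 (-0.95), Fst cKO base replicate 3 (-0.85) or Fst cKO apex replicate 3 (-0.88), without rounding (-0.99) and with a replicate block (-1.0). A positive difference in base and apex with a negative one in the middle was found for 23 of 26 mitosis and 13 of 16 replication genes, against 14.2% of all tested genes. Each of the 3 differences passed the adjusted p for 8 and 5 of them, against 1.82% of all tested genes.

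Among the Control regions the middle stood highest. In the Control apex against the Control middle, 18 mitosis genes and 3 replication genes (E2f8, Rrm2 and Cdc6) fell and none rose, against 3.22% and 2.08% of all tested genes. A lower level by the adjusted p alone was found for 24 mitosis and 13 replication genes, and a higher one for none, against 22.4% and 23.1% of all tested genes. Aurkb was at -2.24 ± 0.21, adjusted p = 4.84e-11, and Mki67 at -2.01 ± 0.047, adjusted p = 1.81e-28, and the median was -1.40 for the mitosis genes and -0.55 for the replication genes, against 0.0058 over all tested genes. In the Control middle against the Control base, 12 mitosis genes and 2 replication genes (E2f8 and Rrm2) rose and none fell, against 1.53% and 1.2% of all tested genes, and by the adjusted p alone all 26 mitosis and 11 of 16 replication genes were higher and none lower, against 15.9% and 15.6% of all tested genes. There Hmmr was at 1.45 ± 0.21 and Mki67 at 1.27 ± 0.042, and the medians were 0.97 and 0.44, against 0.0032 over all tested genes. Every Control middle library lay above every Control base and Control apex library for 23 of 26 mitosis and 9 of 16 replication genes, against 7.09% of all tested genes.

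In the Control apex against the Control base no member was called by edgeR or DESeq2, against 2.28% of all tested genes called higher and 3.2% lower. At an unadjusted p under 0.05, 26 members were lower and 2 higher, and the share of all tested genes at that cut was not counted. Bub1b (0.43 ± 0.10) and Cdc20 (0.57 ± 0.090) were the 2 that were higher by the adjusted p alone, and 12 mitosis and 10 replication genes were lower, against 26.7% and 25.8% of all tested genes. The medians were -0.40 and -0.23, against 0.0049 over all tested genes.

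Among the Fst cKO regions 2 members were called, in 1 of 3 comparisons. In the Fst cKO apex against the Fst cKO base, Mki67 (-1.13 ± 0.041, adjusted p = 6.03e-23) and E2f8 (-1.1 ± 0.15, adjusted p = 1.83e-07) fell and no member rose, against 3.81% and 2.79% of all tested genes. Without Fst cKO apex replicate 2, 4 members were called, Kif4 (-1.05) and Nusap1 (-1.05) besides these. In the Fst cKO apex against the Fst cKO middle no member was called by edgeR or DESeq2, against 1.67% of all tested genes called higher and 2.93% lower, and 25 members were lower and 2 higher at an unadjusted p under 0.05. In the Fst cKO middle against the Fst cKO base no member was called by either tool, against 1.92% and 1.35%, and 17 members were lower and 0 higher at an unadjusted p under 0.05. Shares of all tested genes at the unadjusted p were not counted. By the adjusted p alone, 22 mitosis and 11 replication genes were lower and none higher in the Fst cKO apex against base (24.7% and 30.5% of all tested genes), 16 and 6 were lower and 2 and 0 higher in apex against middle (25.2% and 25.7%), and 8 and 7 were lower and none higher in middle against base (22.9% and 23.5%). The medians of the mitosis genes were -0.56, -0.43 and -0.20 in these 3 comparisons and those of the replication genes -0.24, -0.08 and -0.18.

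When the 3 libraries of a pool were summed and the genotype effect over the regions was tested on the 6 pools by edgeR, no member and none of 19446 genes was called, higher or lower (0% each). At an unadjusted p under 0.05 stood 2133 of all genes and 1 member, E2f1, at 0.51 ± 0.14 (adjusted p = 0.372), and no other tool was run on the pools. Mki67 was at 0.73 ± 0.33 (adjusted p = 0.50). With 2 residual degrees of freedom and opposite signs in the middle, this fit bears on a shared genotype effect only.

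Other genes of the same pathways were counted from lists. Of 34 other mitosis genes, 8 rose in the base and 4 in the apex, Fst cKO against Control, and none fell, against 2.51% and 1.49% of all tested genes called higher. In the base these included Cdc25c, a phosphatase that activates Cdk1 (1.44 ± 0.49), and Ncapg, a condensin subunit (1.34 ± 0.23). In the apex they included Kif2c, a kinetochore depolymerase (1.58 ± 0.29), and Pbk, a mitotic kinase (1.51 ± 0.36). Of 33 other replication genes, 2 rose in the base, Asf1b, a histone chaperone (1.12 ± 0.14), and Uhrf1, a reader of hemimethylated DNA (1.02 ± 0.11), and 1 rose in the apex, Orc1 of the origin recognition complex (1.31 ± 0.46). The counts of the replication list lie near those shares of all tested genes. None of either list was called in the middle. The summed CPM of the other mitosis genes was 1.21, 0.94 and 1.08 times the Control level in the Fst cKO base, middle and apex. That of the other replication genes was 1.04, 0.97 and 1.02 times the Control level.

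Of 6 other E2F genes, E2f2 rose in the base (1.02 ± 0.094) and was at 0.95 ± 0.11 in the apex. For this and the following lists, 2.51% of all tested genes were called higher in the base and 1.49% in the apex. None of 8 genes for G1 cyclins and their kinases and none of the 9 tested of 10 inhibitors and pocket proteins was called between genotypes. In the G1 list Ccnd1 was at 0.41 ± 0.046 in the base and Cdk6 at 0.42 ± 0.079 in the apex. Among the inhibitors Cdkn2c was at 0.54 ± 0.12 in the apex and Cdkn2b at -0.74 ± 0.18 in the middle. Replication-dependent histone genes are near-identical copies and uncertain, and only 5 of 12 passed the filter. Of these 1, Hist1h1d (1.89 ± 0.59), rose in the apex and none in the base or middle.

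The summed markers of red blood cells and those of neutrophils were highest in the Fst cKO base, next in the Control middle and lowest in the Control apex. The 13 red blood cell genes summed to 1664 to 1682 CPM in the Fst cKO base, 1033 to 1039 CPM in the Fst cKO middle and 941.7 to 957.2 CPM in the Fst cKO apex, against 571.4 to 573.2 CPM in the Control base, 1059 to 1066 CPM in the Control middle and 382.0 to 389.3 CPM in the Control apex. The 14 neutrophil lineage genes summed to 358.5 to 361.7 CPM in the Fst cKO base, 263.1 to 263.8 CPM in the Fst cKO middle and 145.7 to 150.7 CPM in the Fst cKO apex, against 111.3 to 115.0, 304.9 to 305.0 and 89.5 to 90.2 CPM in the Control base, middle and apex. Fst cKO against Control, 13 of 13 red blood cell and 14 of 14 neutrophil genes were called higher in the base, 12 and 3 in the apex and 0 and 0 in the middle. The shares of all tested genes called higher were 2.51% in the base, 1.49% in the apex and 2.15% in the middle. No gene of either list was at 0 in a group. Alas2, which starts heme synthesis in erythroid cells, had 71.1, 44.7 and 37.7 CPM in the Fst cKO base, middle and apex, against 20.8, 41.5 and 15.5 CPM in the Control base, middle and apex. Mpo, the myeloperoxidase of immature neutrophils, had 19.8, 13.7 and 9.09 CPM in the Fst cKO base, middle and apex, against 7.18, 22.5 and 5.01 CPM in the Control base, middle and apex. Unlike the neutrophil sum, Mpo was thus highest in the Control middle. The part of blood cell precursors in the cell cycle results was not tested.

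Other marker lists are given for the same groups. The 10 osteoblast genes summed to 1447 to 1451 CPM in the Fst cKO base, 1448 to 1475 CPM in the Fst cKO middle and 869.6 to 876.6 CPM in the Fst cKO apex, against 2010 to 2079, 896.1 to 899.7 and 630.5 to 637.3 CPM in the Control base, middle and apex. The 12 genes of B cell progenitors summed to 15.9 to 16.6 CPM in the Fst cKO base, against 20.7 to 22.8 CPM in the Control base, 20.5 to 21.1 CPM in the Fst cKO middle, against 29.0 to 30.8 CPM in the Control middle, and 13.3 to 14.6 CPM in the Fst cKO apex, against 12.9 to 14.3 CPM in the Control apex, with 1 gene at 0 in each of the Fst cKO middle and the Control base. The 8 megakaryocyte and platelet genes summed to 32.5 to 33.7, 29.0 to 31.2 and 30.1 to 34.1 CPM in the Fst cKO base, middle and apex, against 29.6 to 32.6, 50.3 to 54.8 and 18.8 to 19.3 CPM in the Control base, middle and apex. The 8 macrophage genes summed to 167.3 to 175.4, 140.4 to 141.8 and 125.4 to 126.1 CPM in the Fst cKO base, middle and apex, against 151.4 to 156.7, 157.5 to 159.2 and 114.4 to 117.2 CPM in the Control base, middle and apex, with no gene called between genotypes. Like the mitosis genes, the macrophage sums were higher in Fst cKO in the base and apex and lower in the middle, and their part in the results was not tested. The megakaryocyte sums were lower in the Fst cKO middle and higher in the Fst cKO apex, and overlapped in the base. The 8 genes of central glia, another list with its highest sums in the Control middle, summed to 217.5 to 222.8, 182.7 to 186.6 and 168.0 to 170.8 CPM in the Fst cKO base, middle and apex, against 206.0 to 210.6, 336.1 to 338.0 and 188.3 to 193.9 CPM in the Control base, middle and apex. Between genotypes, 2 of these 8 were called higher in the base, 5 lower in the middle and 4 lower in the apex, with 1 gene at 0 in the Fst cKO apex. Of all tested genes, 2.51% were called higher in the base, 0.575% lower in the middle and 0.553% lower in the apex. The 6 airway epithelium genes summed to 104.6 to 107.3, 26.3 to 28.5 and 348.3 to 352.8 CPM in the Fst cKO base, middle and apex, against 136.5 to 137.9, 15.5 to 15.8 and 22.6 to 25.1 CPM in the Control base, middle and apex. The 5 spiral ganglion neuron genes had 2393 to 2412, 4175 to 4195 and 4107 to 4121 CPM in the Fst cKO base, middle and apex, against 3818 to 3890, 4672 to 4695 and 5580 to 5605 CPM in the Control base, middle and apex, and were lower in Fst cKO in each region without a call. The part of these lists in the results was not tested. The 6 hair cell genes were present in every group, highest in the apex of both genotypes. They had 139.6 to 414.5 CPM over the Fst cKO libraries and 147.4 to 458.4 CPM over the Control libraries. The 5 supporting cell genes summed to 2778 to 2790, 2451 to 2480 and 3218 to 3230 CPM in the Fst cKO base, middle and apex. Their sums were 2620 to 2635, 2581 to 2603 and 2925 to 2933 CPM in the Control base, middle and apex. Like the macrophage sums, the supporting cell sums were higher in Fst cKO in the base and apex and lower in the middle. Their part in the results was not tested. With the red blood cell and neutrophil genes left out of totals, scaling and tests, the numbers of members called stayed within 1.5 times those above, which tests the scaling and not the cells.

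**Figure D4:**
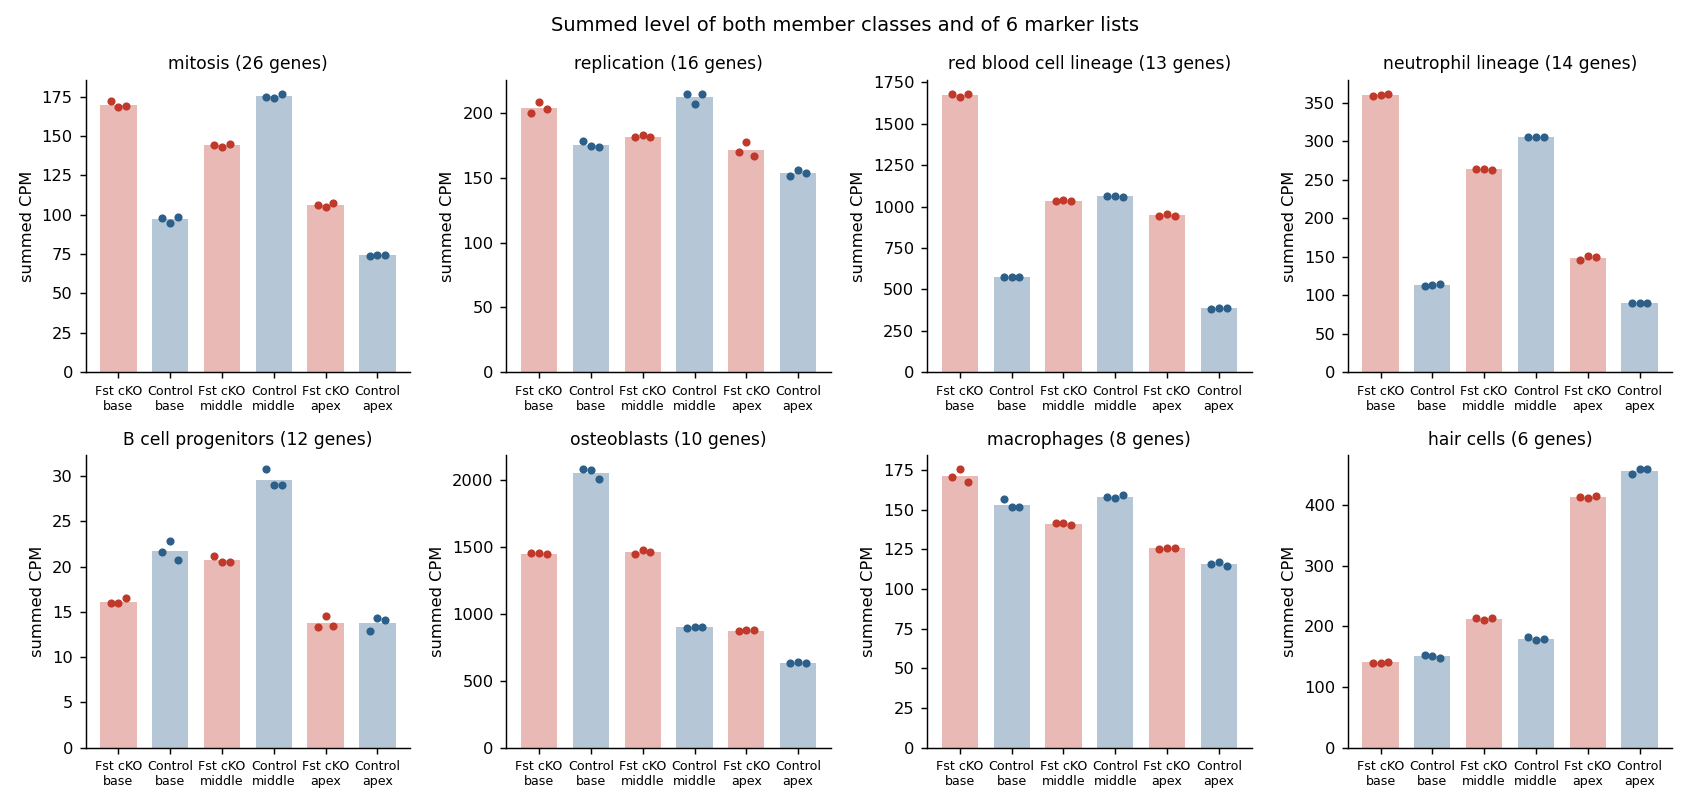
Summed CPM (vertical axes, from 0) of the 2 member classes and of 6 marker lists in each library by group, Fst cKO in red and Control in blue, with bars at the mean of 3 technical libraries. The mitosis, red blood cell and neutrophil sums are high in the Fst cKO base and Control middle and low in the Control base and Control apex. The red blood cell sum of the Fst cKO middle lies close to that of the Control middle. The macrophage sums differ between genotypes in the same directions as the mitosis sums over a narrow range, and the osteoblast and hair cell sums have other orders.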

How the data were processed

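Total RNA of 6 cochlear pools (Fst cKO and Control, each as base, middle and apex) was sequenced as 3 technical libraries per pool (TruSeq kit with Ribo-Zero), as the labels state. STAR 2.5.2b, Cuffdiff 2.2.1 and the builds GRCm38 and mm10 are listed per the submitters' processing notes. The counter, the annotation and the use of strand are not given in the sources used here. The deposited table holds expected counts per gene and library and FPKM values computed by the authors, per the file headers. Whole values (tolerance 1e-06) made up 89.2% to 89.9% of each library, and the rest were rounded for the count models. The replicates are technical by the labels. A chi-square between libraries of 1 pool, over genes with at least 20 counts, came to 1.19 to 1.59 per degree of freedom, little above counting noise. They entered the 6-group fit as 3 technical libraries, and a fit on their sums counts each pool once.

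Counts were fitted with edgeR 4.0.16 (R 4.3.3): filterByExpr left 17901 of 46583 genes, TMM factors ran from 0.977 to 1.03, and two-sided quasi-likelihood F tests used a single 6-group design (12 residual degrees of freedom), with Benjamini-Hochberg adjustment over all tested genes. The common coefficient of variation was 0.00988 between libraries. In a second fit, on 6 pool sums with region in the model, it was 0.116 on 2 residual degrees of freedom. Calls required an adjusted p below 0.05 and a log2 fold change of 1 or more in either direction. Alternatives were RLE factors, no filter, DESeq2 1.42.0, limma 3.58.1 on log2(FPKM + 1) and log2(FPKM + 0.1), a replicate block, counts not rounded, fits on 2 groups only, other call rules, totals without red blood cell and neutrophil genes, and each library left out in turn. The fits were tested on simulated counts.

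The 42 members were matched by symbol, and positions and exon overlaps came from GENCODE on GRCm38. Values of every library are given for the member with the highest mean CPM in each role, for Mki67 and Top2a, and for the members with the highest and lowest log2 fold change of each class in each genotype comparison. Pathway lists (6, with 103 genes) and marker lists (16, with 123 genes found) were described by counts, medians and sums. The members and lists were chosen with earlier results of these data known. Promoter windows came from RefSeq tables. No molecular identifiers are named, so the floor of 3 counts covers counting error only.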

Additional observations from a re-analysis of the deposited data

Results flagged for a closer look

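The genotype effect, as log2 fold change of Fst cKO over Control, differed between regions by interaction tests in the edgeR fit for 15 members between apex and middle, for 20 between middle and base, and for 1, Kif4, between apex and base. Of all tested genes, 1.67% were called higher and 1.93% lower for apex minus middle, and 2.16% and 2.54% for middle minus base. For apex minus base the shares were 0.855% and 1.56%. The 1 member called there lies near those shares, and its call was lost in several settings given below. Of the members described library by library, the effect in the apex minus that in the middle was 1.08 for Birc5, 1.12 for Ccna2, 1.08 for Hmmr, 1.24 for Mki67, 1.05 for Top2a, 1.66 for Ube2c, 1.17 for E2f8 and 1.07 for Rrm2. The effect in the middle minus that in the base was -1.15 for Birc5, -1.19 for Ccna2, -1.85 for Hmmr, -1.64 for Mki67, -1.01 for Nusap1, -1.41 for Top2a, -1.44 for Ube2c, -1.51 for E2f8 and -1.25 for Rrm2. Red blood cell and neutrophil genes differed between the same regions: 12 of 13 and 7 of 14 were called with a higher effect in the apex than in the middle, and 13 of 13 and 14 of 14 with a lower effect in the middle than in the base. Of the 8 megakaryocyte and platelet genes, 6 were called in each of these interactions, in the same directions. Both interactions use the middle libraries. The part of these cell types in the differences of the members was not tested.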

How the results depend on the processing

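Numbers of called members stayed within 1.5 times under RLE factors, no filter, DESeq2, fits on 2 groups and totals without blood cell genes. By the adjusted p alone, 29 members were called in the apex, 23 in the middle and 33 in the base (Fst cKO against Control), 24, 37 and 37 in Control apex against base, apex against middle and middle against base, 33, 24 and 15 in the same comparisons of Fst cKO, and 7, 33 and 35 in the interactions of apex with base, apex with middle and middle with base. Directions, and shares of all tested genes at this cut, stand with each comparison above. The shares were 26.7% higher and 25.8% lower in Control apex against base, and 23.5% and 22.9% in Fst cKO middle against base. In the interaction of apex with base they were 16.3% and 8.51%. Counted without direction, the members there lie near or below these shares. With a fold of at least 1.5 there were 18, 1 and 24 in apex, middle and base, 8 and 25 in Control apex against base and middle against base, 15 and 8 in Fst cKO apex against base and apex against middle, and 23 and 32 in the last 2 interactions. Shares of all tested genes were not counted for this fold or for limma. With limma on log2(FPKM + 1), which understates changes of low genes, there were 0 in the apex, 1 in the base, 8 in Control apex against middle, 0 in Control middle against base, 0 in Fst cKO apex against base, and 0, 2 and 3 in the interactions. With log2(FPKM + 0.1) there were 3 in the apex, 1 in Fst cKO apex against base and 0 in the interaction of apex with base. That interaction also gave 0 with a replicate block and without rounding. The block moved no other count past 1.5 times: same-numbered libraries correlated at -0.071 to 0.096, so the numbers do not pair the libraries.

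With 1 library left out, 4 to 5 members were called in the apex, 0 to 0 in the middle and 11 to 14 in the base. For Control apex against base the range was 0 to 0, for apex against middle 21 to 23 and for middle against base 13 to 17. For Fst cKO apex against base it was 2 to 4, with 0 to 0 in its other comparisons and on the summed pools. Leaving out Fst cKO apex replicate 2 gave the 4. For the interactions it was 0 to 1, 13 to 16 and 19 to 22, and the call of Kif4 between apex and base was lost without Fst cKO base replicate 3, Fst cKO apex replicate 3, Control base replicate 2 or Control apex replicate 1.

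Of the members described library by library, log2 fold changes (Fst cKO over Control) turned in sign for some that were near 0 and not called: Anln in the base (0.0010 with RLE factors, 0.0073 with 2 groups, 0.0013 with DESeq2), Cenpe in the middle (0.022 and 0.036 with limma on log2(FPKM + 1) and log2(FPKM + 0.1)), Mcm7 in the apex (-0.0048 and -0.0051 with limma) and Pcna in the apex (-0.019 and -0.020 with limma). With 1 library left out, the ranges crossed 0 for Anln in the base (-0.025 to 0.010), Bub1b in the base (-0.12 to 0.074), Cenpe in the middle (-0.11 to 0.055), Pcna in the apex (-0.015 to 0.052) and Gins2 in the base (-0.099 to 0.081), middle (-0.21 to 0.016) and apex (-0.068 to 0.14). The cause was not tested. The summed pools were not fitted with the block, DESeq2, limma or 2 groups.

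Each group is 1 pool, so no setting measures the spread between animals. Counting error weighs most on low members, such as Bub1 and Aurkb, whose group means fall to 0.396 and 0.588 CPM in the Control apex.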
